A study of Mus musculus with 25 samples.

Results

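Regulators of mitochondrial and fat metabolism were followed across 25 mouse hearts. They were chosen by symbol, as 10 of the 56941 genes in the count table, and all 10 passed the filter on low counts. They are Ppargc1a (ENSMUSG00000029167), Ppargc1b (ENSMUSG00000033871), Perm1 (ENSMUSG00000078486), Ppara (ENSMUSG00000022383), Ppard (ENSMUSG00000002250), Esrra (ENSMUSG00000024955), Esrrb (ENSMUSG00000021255), Esrrg (ENSMUSG00000026610), Nrf1 (ENSMUSG00000058440) and Tfam (ENSMUSG00000003923). Hypertrophy of the heart muscle was brought about with Ang/PE, a pair of neurohormonal agonists, in wild-type (WT) mice and in mice labelled MCT1KO, to study how lactate is handled. Slc16a1 is the gene of MCT1, a membrane carrier of lactate, pyruvate and other monocarboxylates. There were 4 WT and 3 MCT1KO hearts labelled no pump, 6 WT and 4 MCT1KO hearts labelled saline, and 3 WT and 5 MCT1KO hearts labelled Ang/PE. Strain, sex, age, doses, infusion times and the way the gene was deleted (a whole-body allele or a Cre driver) are not given in the sources used here.

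The adult heart draws most of its fuel from fatty acids, and these genes set the transcription of the machinery that burns them. Ppara and Ppard encode nuclear receptors that bind fatty acids and switch on genes of fat uptake and oxidation. Esrra, Esrrb and Esrrg encode the estrogen-related receptors, orphan nuclear receptors that drive genes of the respiratory chain and the citric acid cycle. Ppargc1a and Ppargc1b encode coactivators that bind no DNA themselves and work through these receptors and through nuclear respiratory factors. Perm1 encodes a muscle-enriched regulator that is induced by those coactivators and receptors. Nrf1, nuclear respiratory factor 1, switches on nuclear genes of the respiratory chain. It also switches on Tfam, which encodes a protein that packs mitochondrial DNA and takes part in starting its transcription.

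RefSeq promoters (build GRCm38.p6) were at hand for 9 of the 10 genes, as 14 windows; Ppargc1b had no entry. The 250 bases before each start were searched on both strands for the letters that these regulators or their inducers are known to bind. The estrogen-related receptor half-site, AAGGTCA, stands in 4.08% of 32851 such windows of all genes and, among these genes, in that of Perm1. A PPAR direct repeat, AGGTCANAGGTCA, stands in 0.0335% of windows, and the cAMP response element, TGACGTCA, in 1.55%; neither was found in the 14 windows. The short form of that element, TGACG, which the long form contains, stands in 17.8% of windows and in those of Ppargc1a, Ppara and Esrrb. An NRF1 site, GCGCATGCGC, stands in 0.782% of windows and in that of Ppara, and an ETS core, CCGGAAG, in 6.91% and in that of Tfam. A match describes these letters and does not show that a factor binds. The promoters of Perm1, Ppargc1a, Tfam and Ppara are shown as 1 example of each motif found, with Ppara for its 2 different matches. They are written 5′ to 3′ along the gene, matches in capitals.
Perm1 (chr4:156215677-156215926, plus strand; the half-site lies on the opposite strand, 202 bases before the start): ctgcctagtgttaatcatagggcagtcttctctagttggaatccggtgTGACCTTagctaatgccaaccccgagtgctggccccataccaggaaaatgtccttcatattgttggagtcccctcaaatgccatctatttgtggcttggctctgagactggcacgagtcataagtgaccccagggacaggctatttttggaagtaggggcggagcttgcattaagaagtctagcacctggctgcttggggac
Ppargc1a (chr5:51567726-51567975, minus strand; TGACG on the opposite strand, 49 bases before the start): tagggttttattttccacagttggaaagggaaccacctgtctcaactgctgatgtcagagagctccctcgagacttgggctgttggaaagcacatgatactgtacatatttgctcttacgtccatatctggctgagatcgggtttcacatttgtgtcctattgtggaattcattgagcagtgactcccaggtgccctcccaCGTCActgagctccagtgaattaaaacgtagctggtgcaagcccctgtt
Tfam (chr10:71238045-71238294, minus strand; ETS core, 47 bases before the start): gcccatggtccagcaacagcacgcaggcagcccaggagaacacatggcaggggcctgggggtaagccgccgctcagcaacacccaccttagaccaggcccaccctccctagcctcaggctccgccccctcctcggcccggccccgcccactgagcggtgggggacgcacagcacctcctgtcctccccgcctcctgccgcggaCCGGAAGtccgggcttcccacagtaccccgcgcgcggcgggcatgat
Ppara (chr15:85735526-85735775, plus strand; TGACG at 222 and the NRF1 site at 31 bases before the start): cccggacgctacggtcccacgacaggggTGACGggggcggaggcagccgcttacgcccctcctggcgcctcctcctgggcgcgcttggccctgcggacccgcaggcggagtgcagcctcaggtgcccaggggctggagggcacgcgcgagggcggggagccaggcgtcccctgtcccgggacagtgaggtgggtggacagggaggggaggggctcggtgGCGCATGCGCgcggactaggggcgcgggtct

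Total counts ran from 12216704 to 24880683 per heart. Slc16a1, the gene named by the knockout label, was not lost: it averaged 203 CPM in WT and 199.8 CPM in MCT1KO hearts without a pump, 199 and 158 CPM with saline, and 214 and 189.8 CPM with Ang/PE. CPM is a gene's count scaled to the TMM-adjusted size of its library. Every direction between genotypes therefore rests on the label. The 7 genes listed as ventricular muscle markers summed to at least 32353 CPM in every heart, of which Myh6 alone held at least 17803 CPM. That sum can stay high where a single marker falls, as Myl3 did, to 592 CPM in a saline heart. The skeletal muscle markers summed to at most 1.82 CPM. In 8 of the 10 saline hearts the mean log2 level of the atrial markers Myl4, Myl7 and Sln exceeded that of every heart without a saline pump. Myl7 reached 1357 CPM against at most 0.785 CPM in the other 15. Nppa, also on the list of atrial markers, was left out of that score and did not follow it. It ran from 20.4 to 5143.5 CPM in hearts without a saline pump and from 44.5 to 3705.5 CPM in saline hearts. Fat markers were also higher in several of these 8 hearts. They peaked in MCT1KO saline replicate 4, whose 5 fat markers summed to 1459 CPM against 11.8 to 18.3 CPM in the 15 hearts without a saline pump. In that heart the ventricular light chain Myl2 stood at 839 CPM, against 3489 to 5504 CPM in the other saline hearts. Without those 8 hearts, WT saline replicate 1 and MCT1KO saline replicate 3 remained, lone hearts that are then assumed to vary like the other groups, and the differences with saline that the text turns on are also given without them. Xist, the transcript of the inactive X chromosome of females, exceeded 100 CPM in 0 of the 3 MCT1KO no pump hearts but in 2 of the 4 WT ones, in 3 of the 4 MCT1KO saline hearts but in 1 of the 6 WT ones, and in 4 of the 5 MCT1KO and 3 of the 3 WT hearts that received Ang/PE, so hearts with Xist were unevenly spread over the groups, and its part in the results was not tested beyond a fit with Xist as a covariate. Which parts of each heart were taken for RNA is not given in the sources used here. In RNA pooled from many cells, fewer cells of a type and less RNA per cell cannot be told apart.

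Per kilobase of the longest annotated transcript, Perm1 was the most abundant of the regulators, at a level of 93.4 ± 17.6 CPM per kb (SD over 25 hearts), followed by Esrra at 51.4 ± 8.26 CPM per kb. Perm1 stood above Esrra in 24 of 25 hearts, MCT1KO saline replicate 4 being the exception. Ppargc1a came next at 27.4 ± 7.54 CPM per kb. Ppara (20.1 ± 3.70 CPM per kb) and Ppargc1b (20.02 ± 5.20 CPM per kb) could not be ordered, since Ppara was the higher in 12 of 25 hearts. Esrrg followed at 11.3 ± 1.56 CPM per kb. Esrrb (8.76 ± 1.67 CPM per kb) and Ppard (8.59 ± 0.772 CPM per kb) overlapped in the same way, with Esrrb higher in 15 hearts. Tfam stood at 7.42 ± 0.826 CPM per kb, and Nrf1 was lowest at 4.66 ± 0.544 CPM per kb. Within the receptor families the order was Ppara above Ppard, and Esrra above Esrrg above Esrrb. With length taken as the union of all exons, the mean of Esrra was 29.1 CPM per kb and Ppargc1b (18.3) came before Ppara (17.9). Tfam (6.97 CPM per kb) then came before Esrrb (6.23) and Ppard (4.26), so the order rests partly on the transcript model. Even the least abundant gene had enough reads to be measured: Nrf1 held at least 226 counts in each heart.

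**Figure D1:**
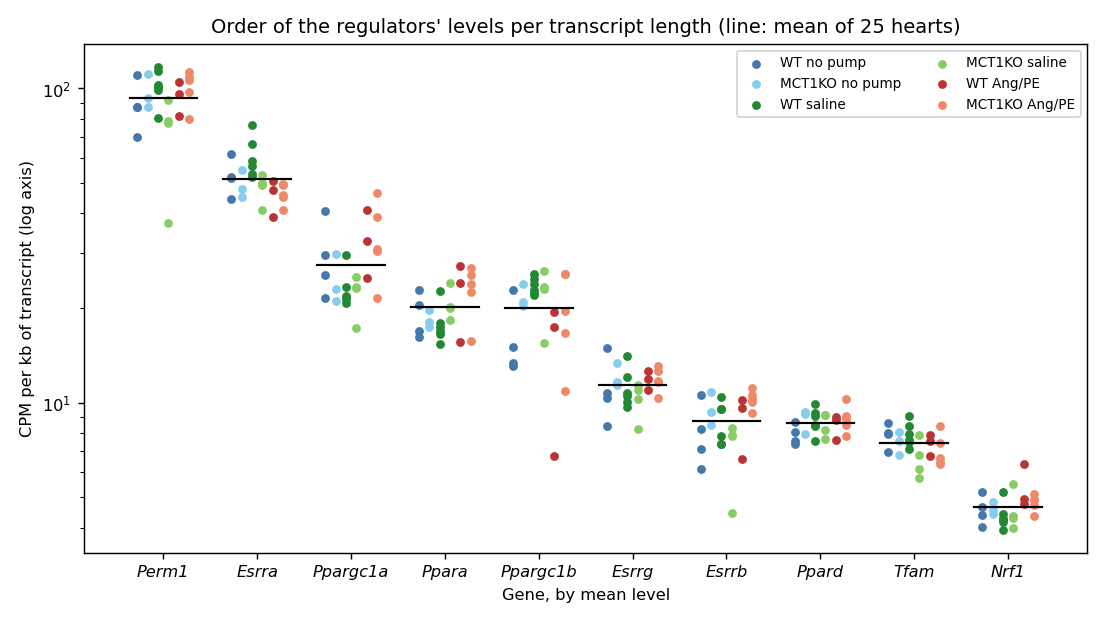
Each point is 1 heart, coloured by group; the vertical log axis gives the level in CPM per kb of the longest transcript, and black lines mark the means of 25 hearts. Perm1 lies at the top with a mean of 93.4 CPM per kb and Nrf1 at the bottom with 4.66 CPM per kb.

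The regulators also differed in how steady they were between hearts of the same group. The within-group SD of log2 CPM was widest for Ppargc1b (0.41), Ppargc1a (0.32) and Perm1 (0.30). It was narrowest for Ppard (0.13), Tfam (0.15) and Nrf1 (0.15). Across the 10 genes the median SD was 0.23, against 0.26 over all 17682 tested genes and 0.16 over the more abundant of these.

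None of the 10 regulators passed an adjusted p of 0.05 in any of the 11 comparisons (edgeR's quasi-likelihood test, Benjamini-Hochberg over all tested genes). The same threshold called 0% of all genes in the genotype comparisons without a pump, with saline and with Ang/PE. It called 0.017% for Ang/PE against saline in WT and 4.46% in MCT1KO. For saline against no pump it called 6.61% in WT and 0.00566% in MCT1KO, and for Ang/PE against no pump 0% in WT and 0.503% in MCT1KO. The genotype interactions called 0% (Ang/PE against saline) and 0.00566% (saline against no pump). At an unadjusted p below 0.05 the regulators' counts were read against the share of all genes that did so. Between genotypes, 0 of the 10 regulators passed that threshold without a pump (12.2% of all genes), 3 with saline (17% of all genes) and 0 with Ang/PE (6.92% of all genes). For Ang/PE against saline 4 passed in WT (19.1% of all genes) and 3 in MCT1KO (20.4%), and for saline against no pump 1 in WT (24.3%) and 2 in MCT1KO (12.1%). For Ang/PE against no pump 0 passed in WT (9.02%) and 1 in MCT1KO (13.1%), and the interactions held 1 (Ang/PE against saline, 13.5%) and 2 (saline against no pump, 17.2%). DESeq2 called 1 regulator at the adjusted threshold in WT and 2 in MCT1KO hearts for Ang/PE against saline and none elsewhere; its own shares of all genes there were 3.65% in WT and 6.93% in MCT1KO. The unadjusted 95% intervals were narrow for Ppard, which ran from -0.22 to 0.14 on the log2 scale for MCT1KO against WT with saline, and wide for Ppargc1b, which ran from -0.60 to 0.40 in the same comparison. Comparisons that share a group, such as Ang/PE against saline and saline against no pump, share its hearts and are not independent of each other.

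**Figure D2:**
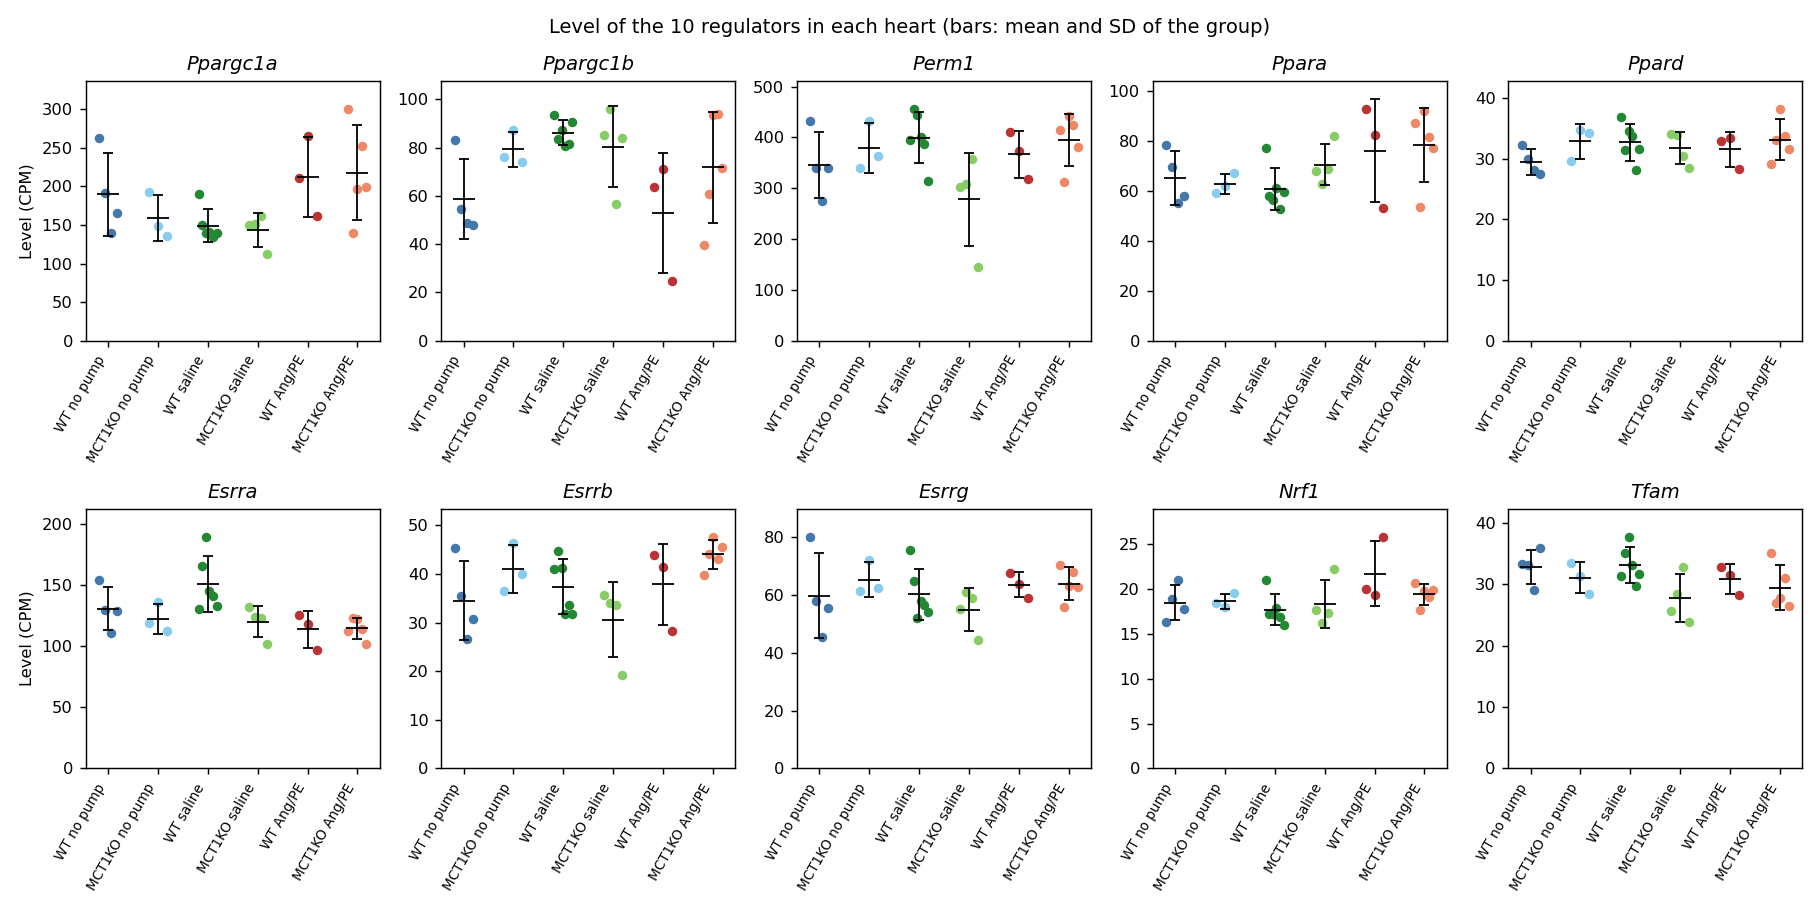
Each panel shows 1 gene, each point 1 heart, with the level in CPM on an axis from 0; bars give the mean and SD of each of the 6 groups. Ppargc1a is highest on average in the 2 Ang/PE groups (212 and 218 CPM), and Esrrb and Perm1 have their lowest heart in MCT1KO saline.

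Ppargc1a, the inducible coactivator of the family, had its highest group means with Ang/PE in both genotypes. In WT hearts it stood at 211, 265 and 162 CPM with Ang/PE, against 190.4, 151, 139, 141, 134 and 139 CPM (replicates 1 to 6) with saline and 263, 191, 139 and 165 CPM without a pump. Ang/PE replicate 3 lay inside the saline range, and the heart without a pump at 263 CPM was nearly as high as the highest Ang/PE heart. The log2 difference between Ang/PE and saline was 0.51 (SE 0.20, adjusted p = 0.182 by edgeR). In MCT1KO hearts the levels were 300.3, 139.5, 197, 253 and 199.6 CPM with Ang/PE, 149, 151, 162 and 112 CPM with saline, and 193, 149 and 136 CPM without a pump. Of the 5 Ang/PE hearts, 4 lay above every saline heart, and replicate 2 did not. Here the difference was 0.60 (SE 0.20, adjusted p = 0.0847 by edgeR). It passed with DESeq2 (0.60, adjusted p = 0.0449) and without MCT1KO Ang/PE replicate 2 (0.72, adjusted p = 0.0356). Against no pump the MCT1KO value was 0.45 (SE 0.22, adjusted p = 0.379 by edgeR), and the WT value was 0.16 (SE 0.22, adjusted p = 0.876). No difference between the genotypes in the Ang/PE response was detected, the interaction being 0.09 with an interval from -0.50 to 0.68. Without the 8 saline hearts with atrial markers the Ang/PE values against saline were 0.17 in WT and 0.42 in MCT1KO. Each then rests on 1 saline heart, the highest of its group for Ppargc1a: WT replicate 1 (190.4 CPM) and MCT1KO replicate 3 (162 CPM).

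Ppargc1b, the sister coactivator, had its lowest group mean in WT hearts with Ang/PE. Its level was 63.5, 71.002 and 24.7 CPM with Ang/PE, against 80.7 to 93.7 CPM (median 85.5) in the 6 saline hearts and 83.2, 54.8, 48.9 and 47.8 CPM without a pump. All 3 Ang/PE hearts lay below all saline hearts, which overlapped the hearts without a pump by replicate 1 of the latter alone. Groups without overlap, in either direction, made up 13.6% of all genes in this comparison. Against saline the log2 difference was -0.70 (SE 0.27, adjusted p = 0.177 by edgeR). It was -0.35 without WT Ang/PE replicate 3, the heart at 24.7 CPM, so that heart carried much of its size. Saline against no pump gave 0.56 (SE 0.25, adjusted p = 0.166 by edgeR), and a fit of those groups alone called it (adjusted p = 0.0195). Without the 8 saline hearts with atrial markers, Ang/PE against saline was -0.80 and saline against no pump 0.66, both larger in size. Both then rest on WT saline replicate 1, the highest heart of its group (93.7 CPM). In MCT1KO hearts Ppargc1b was 39.7, 60.9, 93.7, 93.8 and 71.4 CPM with Ang/PE, 85.1, 96.1, 56.5 and 83.8 CPM with saline, and 76.3, 87.5 and 74.0 CPM without a pump. These 3 groups overlapped, with a difference of -0.16 (SE 0.25) between Ang/PE and saline. It was 0.34 without the 8 hearts, when replicate 3, the lowest MCT1KO saline heart (56.5 CPM), was left.

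Perm1, the muscle regulator downstream of the coactivators, was lowest in the saline hearts labelled MCT1KO. Its levels there were 302, 308, 358 and 146 CPM, against 314 to 456 CPM (median 397.5) in the 6 WT saline hearts. Replicate 4, the heart with the highest atrial and fat markers, had the lowest Perm1 level of all 25. Between genotypes with saline the log2 difference was -0.52 (SE 0.18, adjusted p = 0.171 by edgeR). It shrank to -0.30 without MCT1KO saline replicate 4 and to -0.13 without the 8 hearts with atrial markers. With Ang/PE, Perm1 was 410.3, 373 and 318 CPM in WT and 415, 313, 442, 424 and 381 CPM in MCT1KO. The Ang/PE difference against saline was 0.50 (SE 0.18, adjusted p = 0.112 by edgeR) in MCT1KO and -0.12 (SE 0.19) in WT. Their interaction was 0.63 (SE 0.26, adjusted p = 0.33 by edgeR). Without replicate 4 the MCT1KO response was 0.29, without the 8 hearts it was 0.13, and with the atrial and fat scores as covariates it was 0.04. Without MCT1KO saline replicate 3, the heart lacking atrial markers and the highest of its group at 358 CPM, edgeR called it (0.64, adjusted p = 0.0391). Without a pump, Perm1 was 432, 339.7, 274 and 340.3 CPM in WT and 339, 433 and 364 CPM in MCT1KO, and no genotype difference was detected (0.13, interval -0.29 to 0.55). The part of the atrial and fat markers in these values was not tested beyond these fits.

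Ppara, the main fatty acid sensor of heart muscle, had wide Ang/PE groups. It stood at 92.7, 82.3 and 53.2 CPM in WT and 87.1, 53.6, 91.9, 81.6 and 77.0 CPM in MCT1KO hearts with Ang/PE. The saline hearts ranged from 52.5 to 77.1 CPM (median 58.5) in WT, and MCT1KO saline hearts stood at 68.1, 62.8, 68.5 and 81.9 CPM. The lowest Ang/PE heart of either genotype lay below every MCT1KO saline heart, and the others lay above most saline hearts. The Ang/PE difference against saline was 0.33 (SE 0.16, adjusted p = 0.264 by edgeR) in WT and 0.15 (SE 0.15) in MCT1KO. Without the 8 saline hearts with atrial markers, when the highest WT saline heart alone was left, the WT value was -0.002 and the MCT1KO value 0.18. Its relative Ppard, which fatty acids also activate, was the steadiest of the 10 genes. Ppard ranged from 27.6 to 38.2 CPM over all 25 hearts, its 6 group means lay between 29.5 and 33.1 CPM, and it did not reach an unadjusted p of 0.05 in any comparison.

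Esrra, the most abundant estrogen-related receptor, was lower with Ang/PE than with saline in every WT heart. The Ang/PE hearts stood at 126, 119 and 97.0 CPM, against 131 to 190.0 CPM (median 144) with saline; without a pump the level was 154, 130.1, 111 and 129 CPM. The groups with Ang/PE and with saline did not overlap, as in 13.6% of all genes, whereas the hearts without a pump overlapped both. The log2 difference was -0.41 (SE 0.12, adjusted p = 0.0915 by edgeR), and DESeq2 called it (-0.40, adjusted p = 0.0445). Against hearts without a pump it was -0.20 (SE 0.13, adjusted p = 0.672 by edgeR). In MCT1KO hearts Esrra was 102 to 123 CPM (median 114) with Ang/PE, 132, 124, 123 and 102 CPM with saline, and 119, 137 and 112 CPM without a pump. The MCT1KO difference between Ang/PE and saline was -0.07 (SE 0.11). Between genotypes with saline it was -0.33 (SE 0.11, adjusted p = 0.171 by edgeR). Both larger differences shrank without the 8 hearts with atrial markers, to -0.18 for Ang/PE against saline in WT and to -0.07 for MCT1KO against WT. The WT saline heart then left, replicate 1, had the lowest Esrra of its group (131 CPM).

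Esrrb, the least abundant receptor of its family, separated the MCT1KO saline hearts from the others of that genotype. Saline hearts stood at 35.7, 34.0, 33.6 and 19.2 CPM, Ang/PE hearts at 39.8, 44.1, 47.7, 43.1 and 45.6 CPM, and hearts without a pump at 36.6, 46.4 and 40.0 CPM. All saline hearts thus lay below all others of the genotype. Non-overlapping groups made up 5.42% of all genes for Ang/PE against saline and 8.6% for saline against no pump. The differences were 0.53 (SE 0.17, adjusted p = 0.0761 by edgeR) and -0.42 (SE 0.19, adjusted p = 0.372). DESeq2 called the first (adjusted p = 0.0467). Without MCT1KO saline replicate 4 they were 0.35 and -0.25; without the 8 hearts with atrial markers they were 0.38 and -0.28. With the atrial and fat scores as covariates they were 0.11 and 0.01, so the direction of the latter was lost. In WT hearts the 3 groups overlapped, with means of 37.9, 37.4 and 34.5 CPM for Ang/PE, saline and no pump. Esrrg, a receptor abundant in oxidative muscle, was also lower in each MCT1KO saline heart (55.1, 60.9, 58.9 and 44.4 CPM) than in the MCT1KO hearts without a pump (61.1, 72.0 and 62.3 CPM). The nearest hearts stood at 60.9 and 61.1 CPM, and the log2 difference was -0.25 (SE 0.15, adjusted p = 0.512 by edgeR). It was -0.14 without the 8 hearts with atrial markers and 0.009 with the atrial and fat scores as covariates.

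Nrf1, the nuclear respiratory factor, kept a narrow range, from 15.9 to 25.8 CPM over all hearts. Its highest heart was WT Ang/PE replicate 3, at 25.8 CPM, against 19.9 and 19.3 CPM in replicates 1 and 2 and 15.9 to 20.98 CPM (median 17.2) with saline. The log2 difference was 0.29 (SE 0.11, adjusted p = 0.151 by edgeR), 0.16 without replicate 3 and 0.06 without the 8 saline hearts with atrial markers. The WT saline heart then left, replicate 1, had the highest Nrf1 of its group (20.98 CPM). Tfam, the mitochondrial DNA factor, stood at 25.7, 28.5, 32.9 and 23.9 CPM in MCT1KO saline hearts against 29.7 to 37.7 CPM (median 32.3) in WT saline hearts. Of the 4 MCT1KO hearts, 3 lay below all WT hearts, and replicate 3, the heart without atrial markers, did not. The genotype difference was -0.26 (SE 0.10, adjusted p = 0.203 by edgeR). It was 0.09 between the hearts left without the 8 with atrial markers. Without a pump and with Ang/PE the Tfam difference between genotypes was -0.08 (SE 0.11) and -0.07 (SE 0.11).

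**Figure D3:**
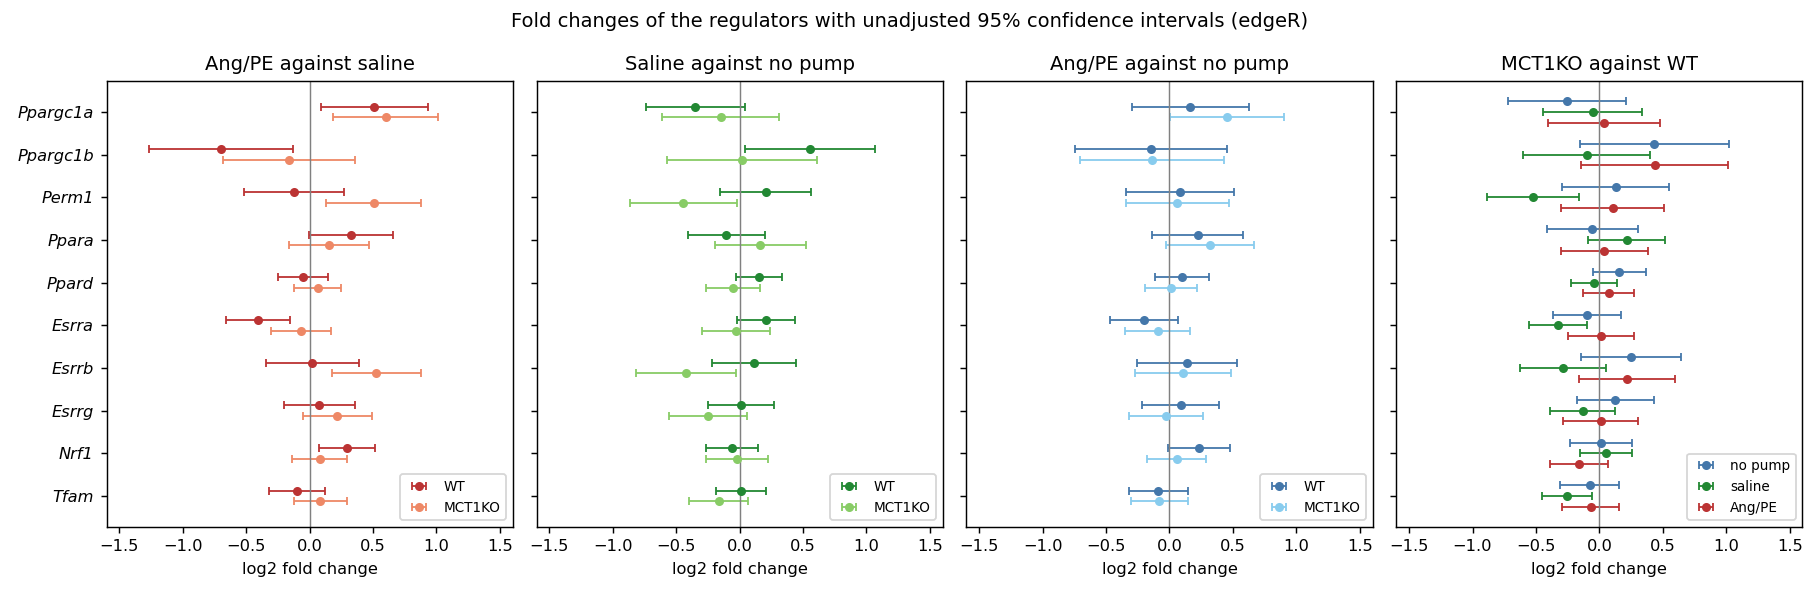
Log2 fold changes of the 10 genes with unadjusted 95% intervals, in 4 panels: Ang/PE against saline, saline against no pump, Ang/PE against no pump, and MCT1KO against WT. Intervals clear of 0 include Ppargc1a in both genotypes for Ang/PE against saline and Perm1, Esrra and Tfam for MCT1KO against WT with saline; none passed adjustment.

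Single hearts of a group departed from its mean in several regulators at once. Over the 25 hearts, with group means removed, r was positive in 36 of the 45 pairs, and 16 pairs passed an adjusted permutation p of 0.05 (two-sided, hearts shuffled within groups 100000 times, Benjamini-Hochberg over the 45 pairs). Of the 16, 15 were positive. The median r was 0.39 among the regulators, against 0.0 over the 84013203 pairs of the 12963 tested genes with a mean log2 CPM above 1. An r of at least 0.5 in size was seen in 40% of the regulators' pairs and in 12% of all those pairs. All these values come from the same libraries, which differ in depth, RNA composition and the amount of atrial and fat tissue; the part of those was not tested for the pairs beyond the fits given here.

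The receptor Esrrb and Perm1 made the closest pair (r = 0.84, rho = 0.83, adjusted permutation p = 0.0036 for r). In WT hearts without a pump, for example, replicate 1 had the highest Esrrb (45.4 CPM) and the highest Perm1 (432 CPM), and replicate 3 the lowest of both (26.5 and 274 CPM). Without the 2 hearts farthest from the median r was 0.71, over the 15 hearts without a saline pump 0.77, and without MCT1KO saline replicate 4 0.73. Esrrg and Perm1 had r = 0.70 (rho = 0.79, adjusted permutation p = 0.0037 for r), and 0.90 over the 15 hearts without a saline pump. Perm1 also varied with Esrra (r = 0.67, rho = 0.75, adjusted permutation p = 0.0037 for r), so over all hearts each of the 3 estrogen-related receptors was paired with it. Over the 15 hearts without a saline pump the pair with Esrra kept its size but did not pass (r = 0.68, adjusted permutation p = 0.055). Among the receptors, Esrra with Esrrb (r = 0.76, rho = 0.82, adjusted permutation p = 0.0037 for r) and Esrrb with Esrrg (r = 0.71, rho = 0.70, adjusted permutation p = 0.0071 for r) passed. Esrra with Esrrg did not (r = 0.36, rho = 0.44, adjusted permutation p = 0.2 for r).

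Ppargc1a varied most closely with Esrrg (r = 0.77, rho = 0.78, adjusted permutation p = 0.0036 for r), the tie holding at 0.70 without the 2 farthest hearts and at 0.74 over the 15 hearts without a saline pump. It also varied with Ppara, Tfam and Perm1, at r of 0.62, 0.59 and 0.57 (adjusted permutation p of 0.032, 0.024 and 0.014). Over the 15 hearts without a saline pump its pair with Perm1 did not pass (r = 0.67, adjusted permutation p = 0.057). The r of Ppargc1a and Ppara was 0.34 without the 2 farthest hearts, so over all hearts it rests on those; it was 0.72 over the 15 hearts without a saline pump and 0.74 without MCT1KO saline replicate 4. Ppargc1b instead varied with Ppard (r = 0.67, rho = 0.72, adjusted permutation p = 0.0039 for r; 0.65 without the 2 farthest hearts), and Ppard with Esrrb (r = 0.67, rho = 0.68, adjusted permutation p = 0.0037 for r). Nrf1 stood apart. Its pair with Esrra was the single negative one that passed (r = -0.67, rho = -0.63, adjusted permutation p = 0.014 for r), at -0.71 without the 2 farthest hearts and -0.85 over the 15 hearts without a saline pump. In WT Ang/PE hearts, replicate 3 held the highest Nrf1 (25.8 CPM) and the lowest Esrra (97.0 CPM). The share of G and C in the transcripts was 45.4% for Nrf1, 44.9% for Tfam, 41.7% for Ppargc1a and 42.5% for Esrrg. It was 50.3% for Esrra, 51.45% for Ppara, 52.2% for Ppard, 53.2% for Perm1, 54.9% for Esrrb and 57.8% for Ppargc1b. The part of this share in the pairs was not tested. Over the 15 hearts without a saline pump 14 pairs passed, of which 11 had passed in all hearts.

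**Figure D4:**
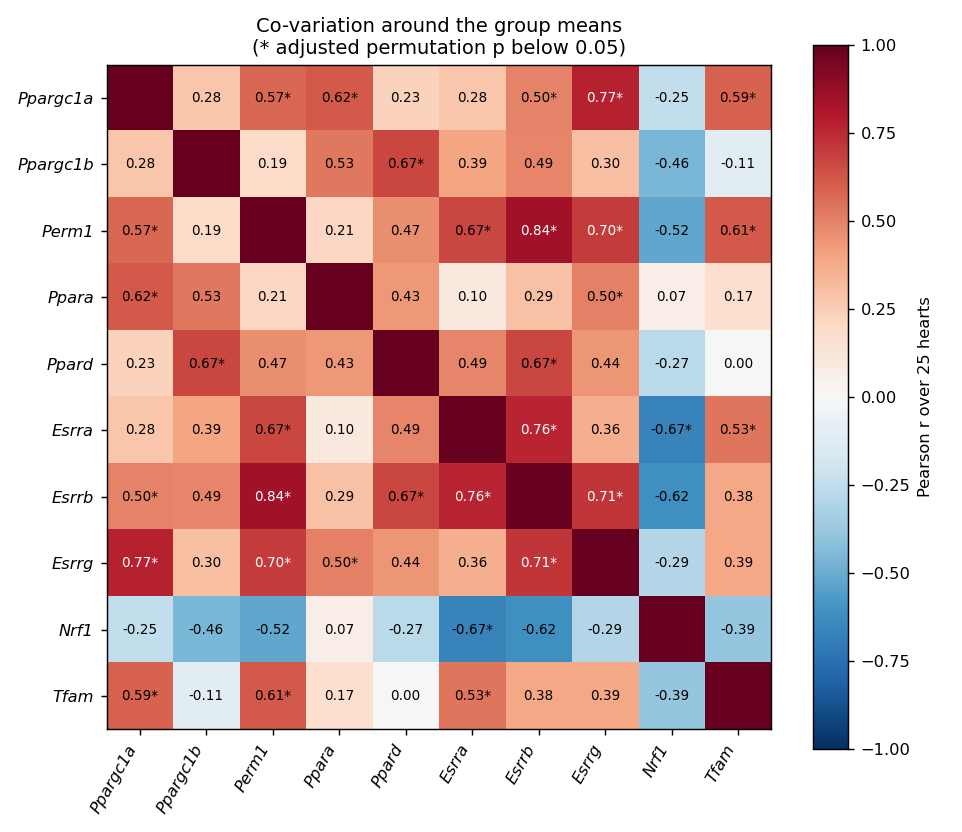
Pearson r over 25 hearts for each pair of regulators, computed on log2 CPM minus the group mean; red is positive, blue negative, and an asterisk marks an adjusted permutation p below 0.05. The block of Perm1 with Esrra, Esrrb and Esrrg is positive throughout (0.67, 0.84 and 0.70), and Nrf1 with Esrra is negative (-0.67).

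**Figure D5:**
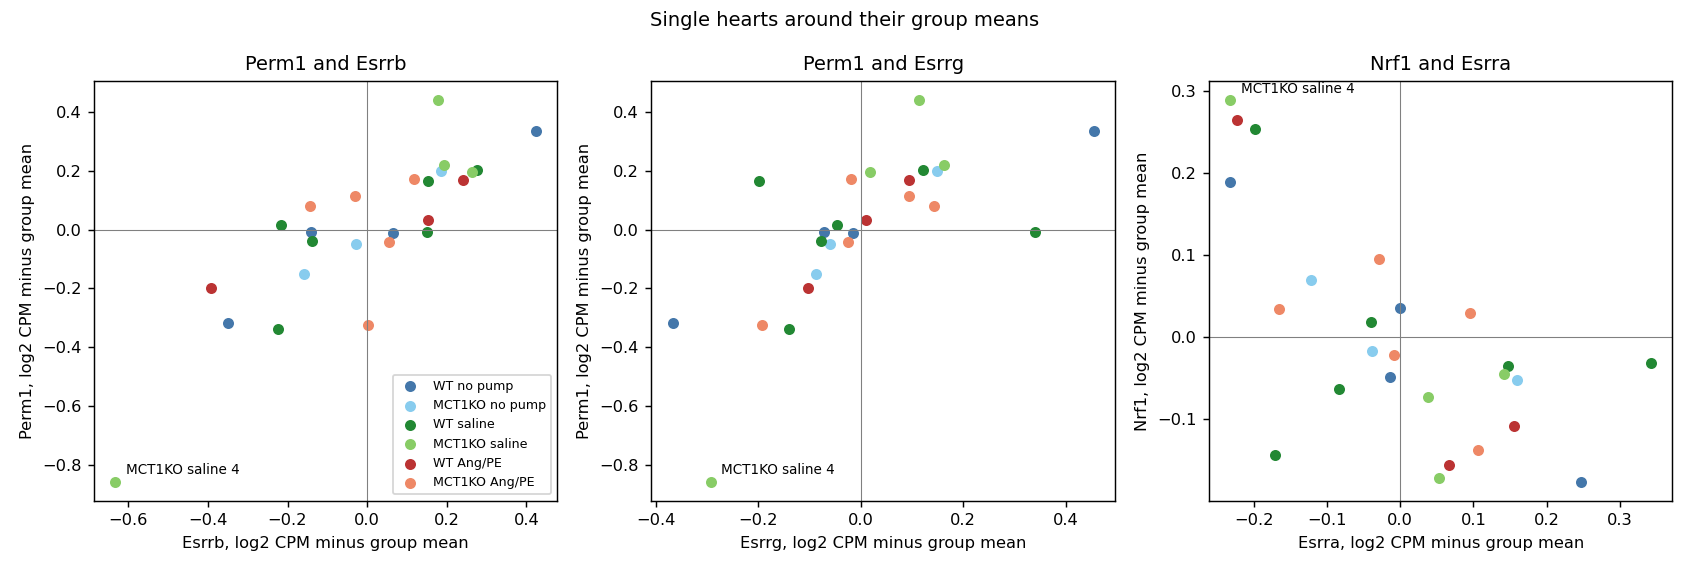
Each point is 1 heart, placed by its log2 CPM minus its group mean for Esrrb and Perm1, Esrrg and Perm1, and Esrra and Nrf1. MCT1KO saline replicate 4 lies lowest for Perm1, and r for Esrrb and Perm1 is 0.84 with it and 0.73 without it.

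Genes whose deviations were most like those of each regulator were taken from 11596 named genes with a mean log2 CPM above 1; the r values are over 25 hearts and are given as a description. Perm1 had the closest companions, Ogdhl (0.97), which encodes a relative of a citric acid cycle enzyme, Pptc7 (0.96), a mitochondrial phosphatase, and Asb15 (0.94). Esrrb was followed by Asb8 (0.94), Fblim1 (0.93) and Asb2 (0.93), and Esrrg by Msi2 (0.95), Ubr3 (0.92) and Dnm1l (0.91), the last encoding the GTPase that divides mitochondria. Esrra was matched by Ctbp1 (0.92), a transcriptional corepressor, Acad9 (0.91), which helps to assemble complex I, and Tomm40 (0.90), the pore of the outer mitochondrial membrane. Tfam ran with Aasdhppt (0.85), Pdha1 (0.84), a subunit of pyruvate dehydrogenase, and Ndufs1 (0.84), a core subunit of complex I. Ppargc1a had Klhl23 (0.84), Efr3a (0.83) and Rab14 (0.83), and Ppargc1b had Kcnd3 (0.89), a potassium channel gene, Rarb (0.88) and Zfp251 (0.87). Looser matches were found for Ppara, with Bcl7a (0.82), Scaf8 (0.82) and Ddi2 (0.79), for Ppard, with Tubgcp2 (0.84), Casz1 (0.83) and Ulk1 (0.79), and for Nrf1, with Ercc6 (0.83), Tle3 (0.82) and Cd2ap (0.81). Over the 15 hearts without a saline pump these 30 values lay between 0.79 and 0.96.

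The targets of the receptors were then read from lists of known genes. Of 25 PPAR targets, 24 passed the filter on low counts and Fgf21 did not. In saline hearts 0 of the 24 were called between genotypes by edgeR, but 17 were lower in MCT1KO at an unadjusted p below 0.05, where 8.62% of all genes were. Their median log2 difference was -0.45, against 0.03 over all genes. The count was 13 to 17 when single hearts were left out and 10 with Xist as a covariate, where 7.49% of all genes were lower at that threshold. It was 6 with atrial and fat marker scores as covariates, where 2.05% of all genes were. Without the 8 hearts with atrial markers, when 1 saline heart of each genotype was left, the median was -0.20. DESeq2 called 4 of the 24, all lower, where it called 0.368% of all genes lower; they were chosen here after their values were seen. They are Acot1 (-1.25, adjusted p = 0.0251 by DESeq2) and Acot2 (-0.83, adjusted p = 0.00727 by DESeq2), thioesterases that release fatty acids from coenzyme A, Mlycd (-0.60, adjusted p = 0.0178 by DESeq2), which degrades an inhibitor of fatty acid entry into mitochondria, and Acadvl (-0.50, adjusted p = 0.0464 by DESeq2), a dehydrogenase of long-chain fatty acids. In the same comparison Ppara, the receptor itself, had a difference of 0.21 (SE 0.15, adjusted p = 0.462 by edgeR), which was -0.15 without the 8 hearts.

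Ang/PE against no pump involves no saline heart. MCT1KO hearts with Ang/PE had 11 of 24 PPAR targets lower at an unadjusted p below 0.05, where 6.09% of all genes were, and 0 higher, where 7.01% were. Their median was -0.38; edgeR called 0. DESeq2 called 6, all lower, where it called 0.895% of all genes lower. WT hearts with Ang/PE had 7 of 24 lower, where 5.11% of all genes were, and 0 higher, where 3.91% were, with a median of -0.28. The MCT1KO count was 5 without MCT1KO no pump replicate 2 and 8 to 14 without any other heart. It was 5 with Xist as a covariate, where 4.68% of all genes were lower. The WT count was 2 to 7 with single hearts left out: 2 without Ang/PE replicate 1, Ang/PE replicate 3 or no pump replicate 4, and 3 without no pump replicate 1. In both genotypes the receptor Ppara had values above 0, at 0.32 (SE 0.17, adjusted p = 0.437 by edgeR) in MCT1KO and 0.22 (SE 0.17, adjusted p = 0.739) in WT. Between the genotypes with Ang/PE, 0 of the 24 targets reached an unadjusted p of 0.05. In MCT1KO hearts with saline against no pump 13 of 24 were lower (median -0.41), where 4.68% of all genes were, and 0 were called by edgeR. This count was 1 without MCT1KO no pump replicate 2, 8 without no pump replicate 1, and 6 without saline replicate 1 or saline replicate 4. It was 8 with Xist as a covariate, where 3.82% of all genes were lower. Without the 8 hearts with atrial markers 1 MCT1KO saline heart was left, too few for such a count.

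Of the 18 targets of the estrogen-related receptors and Perm1, 12 were lower in MCT1KO than in WT saline hearts at an unadjusted p below 0.05 (8.62% of all genes), with a median of -0.34, and 0 were called by edgeR or DESeq2. The count was 3 without MCT1KO saline replicate 4 and 6 without WT saline replicate 2. It was 0 with the atrial and fat scores as covariates, where 2.05% of all genes were lower at that threshold. Without the 8 hearts with atrial markers, when 1 saline heart of each genotype was left, the median was 0.02. Esrra, Perm1 and Tfam were likewise lower in these hearts, as given above. With Ang/PE against saline 17 of the 18 had values above 0 in MCT1KO (median 0.16) and 5 of 18 in WT (median -0.10), where 48.2% and 48.4% of all genes did, and 0 in either genotype reached an unadjusted p of 0.05. The MCT1KO direction turned with the atrial and fat scores as covariates (2 of 18 above 0, median -0.18) and without the 8 hearts with atrial markers (3 of 18, median -0.16).

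In WT hearts saline against no pump was the comparison with the most calls, and genes of the lists were among them, 5 of which are given here. Cd36, the fatty acid transporter, fell by 0.73 on the log2 scale (SE 0.19, adjusted p = 0.0263 by edgeR), from 2222 ± 149 CPM (SD, n = 4) to 1341 ± 121 CPM (n = 6). Timm8b, of the mitochondrial import machinery, fell by 0.77 (SE 0.16, adjusted p = 0.011 by edgeR), from 53.7 ± 5.75 to 31.5 ± 2.44 CPM. Cox8b, a subunit of cytochrome oxidase, fell by 0.48 (adjusted p = 0.0469 by edgeR), and Ssbp1, the single-strand binding protein of mitochondrial DNA, fell by 0.47 (adjusted p = 0.0359). Mef2d, of the factors that act on the Ppargc1a promoter in muscle, rose by 0.43 (adjusted p = 0.029 by edgeR). The calls made up 1 of 24 PPAR targets, 2 of 18 receptor and Perm1 targets and 1 of 15 genes of mitochondrial DNA transcription and replication, where 6.61% of all genes were called. The 5 calls given here ended without WT no pump replicate 3 (adjusted p of 0.0581 to 0.163 by edgeR). They also ended with the atrial and fat scores as covariates, with log2 differences of -0.37 for Cd36, -0.56 for Timm8b, -0.41 for Cox8b, -0.32 for Ssbp1 and 0.39 for Mef2d. Without the 8 saline hearts with atrial markers, when 1 WT saline heart was left, the differences were -0.58, -0.70, -0.55, -0.33 and 0.48 in the same order. Those of Cox8b and Mef2d were no smaller in size. Fewer hearts and less atrial tissue cannot be told apart in that fit. GC and length offsets ended 4 of the 5 and left Timm8b (-0.48, adjusted p = 0.0353 by edgeR); the others stood at -0.46 for Cd36, -0.28 for Cox8b, -0.31 for Ssbp1 and 0.24 for Mef2d (adjusted p of 0.104 to 0.228 by edgeR). With those offsets and the replicate block together Timm8b was lost too (adjusted p = 0.0978 by edgeR). The replicate block alone and Xist as a covariate each ended the same 4, and the fit without a low-count filter ended Cd36, Cox8b and Ssbp1. Leaving out the 10 hearts in turn, the call held in 9 fits for Timm8b, 5 for Mef2d, 4 for Cd36, 2 for Ssbp1 and 1 for Cox8b. In MCT1KO hearts with Ang/PE against saline 1 of 32 partners was called, where 4.46% of all genes were: Prkab2, a subunit of the energy-sensing kinase AMPK, rose by 0.61 (SE 0.15, adjusted p = 0.0242 by edgeR), from 49.2 ± 7.18 CPM (SD, n = 4) to 74.9 ± 10.1 CPM (n = 5). MCT1KO hearts that had no pump averaged 70.3 ± 12.8 CPM (n = 3), near the Ang/PE level, so saline was the low group of that genotype. The WT means of Prkab2 were 73.0 CPM for Ang/PE, 69.1 CPM for saline and 51.7 CPM for no pump. Whether Ang/PE raised Prkab2 or the MCT1KO saline hearts were low for another reason was not tested. The Prkab2 call ended without MCT1KO saline replicate 4, Ang/PE replicate 1 or Ang/PE replicate 5, at adjusted p of up to 0.142 by edgeR. It also ended with the atrial and fat scores as covariates (0.41, adjusted p = 0.603 by edgeR), in a fit of only the groups compared (0.59, adjusted p = 0.159 by edgeR) and without the 8 hearts with atrial markers (0.66, adjusted p = 0.585 by edgeR). In the other 9 comparisons edgeR called 0 genes of the 4 lists.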

How the data were processed

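RNA of 25 hearts was sequenced after ribosomal depletion with strand-specific libraries, per the labels' protocols. The authors deposited raw read counts per Ensembl gene, as whole numbers with no normalization. The submitters' processing notes name cutadapt 1.16, STAR 2.7.9a, featureCounts 1.6.3, DESeq2 1.42.1 and build GRCm39; the strand setting of the counting and the annotation are not given in the sources used here, so reads of overlapping genes can be misassigned. Depth ran from 12216704 to 24880683 counts per heart.

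Genes were filtered with filterByExpr, which left 17682, and tested with edgeR 4.0.16 (TMM, robust glmQLFit and glmQLFTest, two-sided) in a model of 6 groups with 19 residual degrees of freedom and a common biological coefficient of variation of 0.196. P-values were adjusted by Benjamini-Hochberg within each of 11 comparisons and called below 0.05. CPM uses TMM-scaled library sizes; co-variation used log2 CPM with a prior count of 2. A symbol was found for 97.1% of tested genes. Lengths and GC content came from GENCODE M21 (GRCm38), of another build than the counts, and are used as approximate. The regulators and gene lists were chosen with earlier results of these data known, so counts over them are descriptions. All 10 regulators are named; of the lists, genes called by edgeR, at most 4 per list and comparison, with 1 gene not reported here; and per regulator the 3 genes of highest r. The counts of calls, and each regulator's difference with an unadjusted p below 0.05, were computed again with DESeq2 1.42.0, with RLE scaling in edgeR, without the low-count filter, on the compared groups alone, with a block for replicate number, with Xist or atrial and fat marker scores as covariates, with GC and length offsets (mgcv 1.9.3, with and without that block) and without each heart in turn. Leaving out 8 saline hearts, and 1 heart in the co-variation, was chosen after seeing the data. The fits were tested on simulated counts. Per the labels' protocols each sample is 1 of 25 mouse hearts; littermates, surgery days and library batches are not given in the sources used here.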

Additional observations from a re-analysis of the deposited data

Results flagged for a closer look

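In groups of 4 to 6 hearts, 40 tests for a heart far from the others were run on the 10 regulators, of which chance flags about 2; 3 hearts' values were flagged. In WT saline replicate 1, Ppara stood at 77.1 CPM against 52.5 to 61.0 CPM in the other 5 hearts of the group, and Ppargc1a stood at 190.4 CPM against 134 to 151 CPM. This is the WT saline heart in which Myl7 was 0.465 CPM, against 4.58 to 379 CPM in the others. In MCT1KO saline replicate 4, Esrrb stood at 19.2 CPM against 33.6 to 35.7 CPM in the other 3 hearts. That heart had the highest Myl7 (1357 CPM), Ucp1 (551 CPM) and Adipoq (123 CPM) of the series, and the part of other tissue in its Esrrb level was not tested.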

How the results depend on the processing

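The count of 0 regulators called held under every alternative and left-out heart in 8 of the 11 comparisons. For Ang/PE against saline in WT, DESeq2 called 1 (Esrra). For the same step in MCT1KO, DESeq2 called 2 (Ppargc1a and Esrrb), the replicate number as a block called 1 (Esrrb, 0.58, adjusted p = 0.044), the GC and length offsets with that block called 2 (Ppargc1a and Esrrb), and leaving out single hearts gave 0 to 1. For saline against no pump in WT, a fit of only the groups compared called 1 (Ppargc1b). The replicate numbers are shared between groups, but the hearts are different samples and nothing pairs them; the block changed no other count of regulators. Over all genes, counts of calls ranged over the alternatives from 0 to 1224 for Ang/PE against saline in MCT1KO (788 in the design as planned), from 0 to 2287 for saline against no pump in WT (1168), from 0 to 945 for Ang/PE against saline in WT (3) and from 11 to 385 for Ang/PE against no pump in MCT1KO (89). Leaving out single hearts moved the first from 39 (without MCT1KO saline replicate 4) to 1541 (without MCT1KO saline replicate 3) and the second from 60 (without WT no pump replicate 3) to 2234 (without WT no pump replicate 1). Of the regulators' differences with an unadjusted p below 0.05 in the planned design, 3 changed sign. Tfam between genotypes with saline went to 0.087 without the 8 saline hearts with atrial markers. With atrial and fat scores as covariates, Esrrb (0.014, adjusted p = 0.999 by edgeR) and Perm1 (0.051, adjusted p = 0.997 by edgeR) changed sign for saline against no pump in MCT1KO. The cause was not tested. Differences short of that threshold were not counted, and some changed sign too. Ppara between genotypes with saline, for example, went from 0.21 to -0.15 without the 8 hearts. The co-variation counts were 14 pairs over the hearts without a saline pump and 15 without MCT1KO saline replicate 4, against 16.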
